A study of Mus musculus with 6 samples.

Results

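The energy supply and oxygen response of the embryonic heart were followed here through 41 genes of glycolysis, lactate and pyruvate handling, and the response to low oxygen. A gene was included when its symbol in the deposited tables equalled 1 of the 41 names on the list, and all 41 names were found among the 45792 genes counted. RNA had been sequenced from 6 whole mouse hearts at embryonic day 13.5, 3 labelled wild type (control-labelled) and 3 labelled as Tie2Cre;Ino80 fl/fl knockouts (mutant-labelled), each an individual embryonic heart. Both groups carried the strain label C57BL/6, whereas the study describes its transgenic mice as of mixed background. In the mutant genotype, Cre is expressed from Tie2 regulatory sequence, which is active in endothelial and endocardial cells and their descendants, and was to remove the floxed Ino80 there. Ino80 encodes the ATPase of a chromatin remodelling complex. Whole hearts consist largely of cells outside that lineage, so counts average over cells that keep the gene. In the study, control embryos are defined as any genotype apart from Tie2Cre;Ino80 fl/fl, which is wider than the wild-type label. The comparison asks whether hearts of embryos with poor coronary growth carried a hypoxia response in their RNA.

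Libraries held 28948836 to 89675692 counts, and levels are given as CPM, the counts of a gene scaled to a common library total after TMM correction for composition. Of the 45792 genes, 17125 passed the filter on low counts and were tested with edgeR's quasi-likelihood test, among them all 41 members. The adjusted p is by Benjamini-Hochberg over all tested genes with a threshold of 0.05, and a log2 fold change below 0 means a lower level in the mutant-labelled group. Ino80 itself was at 30.2, 31.6 and 32.7 CPM in control-labelled and 36.5, 33.7 and 31.8 CPM in mutant-labelled hearts (log2 fold change 0.11, adjusted p = 0.47 from edgeR). These counts span the whole gene over all heart cells, whereas the floxed allele loses a single exon. By qPCR, the study found Ino80 mRNA undetectable in endothelial cells isolated from mutant hearts. The counts here do not show the deletion, so the hearts are called by their labels. Summed cardiomyocyte markers lay at 32157 to 39187 CPM in control-labelled and 31775 to 34208 CPM in mutant-labelled hearts, endothelial markers at 1065 to 1362 and 1211 to 1255 CPM, and liver markers at no more than 2.75 CPM in any heart. Red cell markers summed to 9302 to 39407 CPM in control-labelled and 6443 to 11464 CPM in mutant-labelled hearts. Of the 12 red cell markers tested (of 14), the adult globins Hba-a1, Hba-a2, Hbb-bt and Hbb-bs had lower estimates and the embryonic globins Hba-x, Hbb-y and Hbb-bh1 had higher estimates in mutant-labelled hearts. The part of red cells in the results that follow was not tested. In bulk RNA of whole hearts, fewer cells of a type and less RNA per cell cannot be told apart.

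Glycolysis splits glucose into pyruvate. Pyruvate is then either reduced to lactate, which restores the NAD needed by glycolysis, or oxidised in mitochondria after passing the pyruvate dehydrogenase complex. When oxygen is scarce, the prolyl hydroxylases encoded by the Egln genes stop marking the HIF alpha subunits for destruction by the VHL ubiquitin ligase, and HIF with its partner ARNT binds the core letters ACGTG or GCGTG near genes of glucose uptake, glycolysis and pyruvate dehydrogenase kinase. The embryonic heart develops in low oxygen and relies on glycolysis, and turns to oxidative metabolism as it matures.

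No member passed the adjusted threshold in edgeR. At an adjusted p under 0.05, 0 members were higher and 0 lower, and the same held for all tested genes (0% of genes called higher and 0% lower). Of the 41 members, 11 (26.8%) were lower at an unadjusted p under 0.05, against 9.98% of all tested genes. They were Aldoc, Eno3, Ldhb, Slc16a1, Pdk1, Pdk2, Pdha1, Epas1, Egln1, Egln3 and Adm. At the same level 1 member was higher, Gapdh, against 9.48% of all tested genes. The values of the groups did not overlap for 10 members below control (24.4%, against 12.8% of all tested genes) and for 3 above it (Gpi1, Gapdh and Pkm, against 14.3%). In either direction these were 12 members at an unadjusted p under 0.05, where 19.5% of all tested genes were, and 13 without overlap, where 27.1% were. In all, 26 members had lower and 15 higher estimates, where 50.3% of all tested genes had lower estimates, and the median log2 fold change was -0.084 over members and -0.0017 over all tested genes. DESeq2, the tool named in the study's methods, called 5 members lower (Egln3, Aldoc, Pdk1, Pdk2 and Eno3) and 1 higher (Gapdh) at an adjusted p under 0.05, against 3.26% and 2.52% of all genes. Without control replicate 1, edgeR called 4 members lower, Egln3, Eno3, Pdk2 and Epas1, against 2.49% of all genes lower and 1.85% higher. With every gene of at least 1 count tested, it called Egln3 and Aldoc lower, where 1.21% of all genes were called lower and 0.926% higher.

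**Figure D1:**
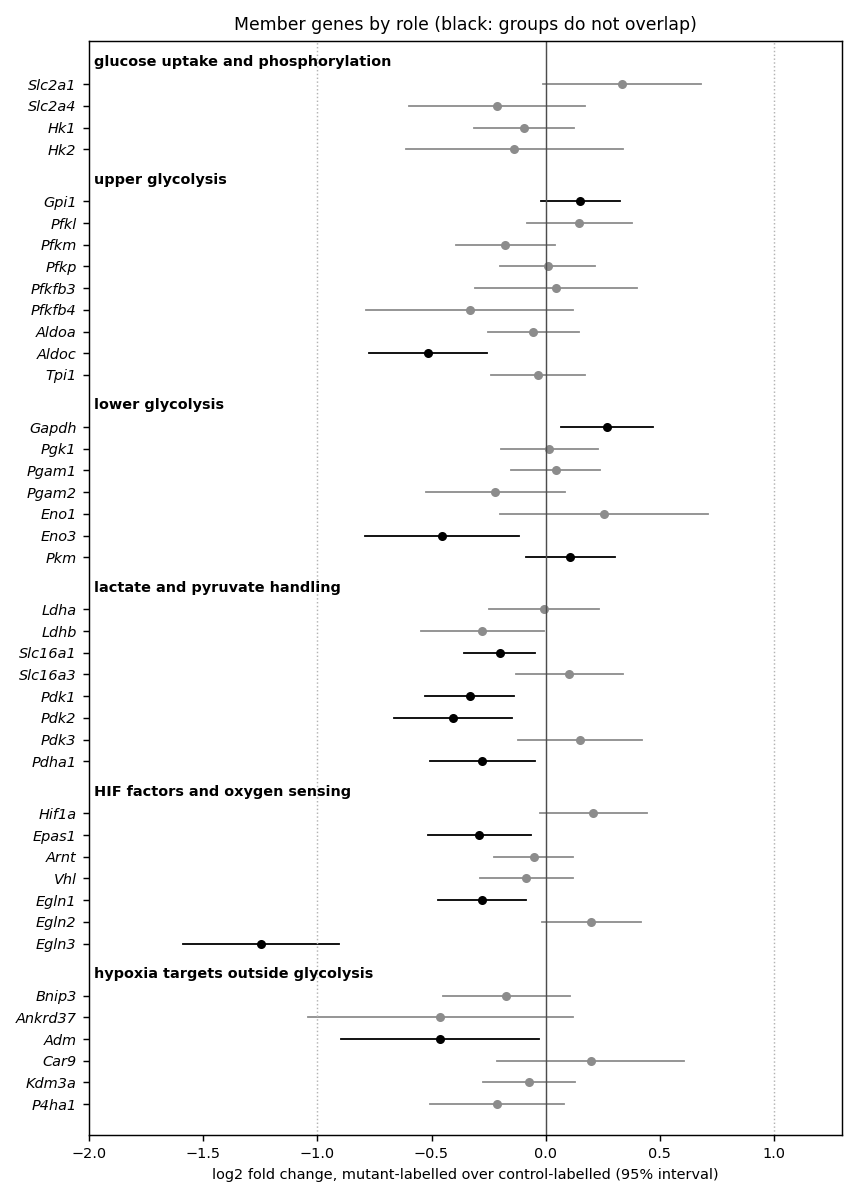
Log2 fold change of mutant-labelled against control-labelled hearts, with its 95% interval on the x axis for each of the 41 members, grouped by role on the y axis, with members whose groups do not overlap in black. Egln3 at -1.25 lies farthest from 0, and most other estimates lie within 0.5 of 0.

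Promoter sequence was read from RefSeq windows on GRCm38.p6 for 39 of the 41 members, all but Slc2a4 and Epas1. Only the 250 bases before each start site were searched, on both strands, for the letters ACGTG and GCGTG, where a CACGTG run counts once on each strand. At least 1 window of 35 members (89.7%) held either motif, against 59.9% of 11080 tested genes and 41.5% of all 27025 genes with a window. For ACGTG alone the shares were 53.8%, 24.4% and 18.5%. The sequences of 5 members known as HIF targets follow, 5′ to 3′ on the gene's strand, with matches to either motif in capitals. Egln3, Pdk1 and Aldoc were the members of this kind with the smallest p for a lower level, and Ldha and Bnip3 are common readouts of hypoxia whose groups overlapped.
Egln3 (chr12:54203875-54204124, minus strand): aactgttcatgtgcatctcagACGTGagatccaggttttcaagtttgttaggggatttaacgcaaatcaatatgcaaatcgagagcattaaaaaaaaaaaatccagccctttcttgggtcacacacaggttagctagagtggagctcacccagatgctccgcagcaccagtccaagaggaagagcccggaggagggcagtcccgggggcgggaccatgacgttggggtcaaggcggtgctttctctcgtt
Pdk1 (chr2:71872974-71873223, plus strand): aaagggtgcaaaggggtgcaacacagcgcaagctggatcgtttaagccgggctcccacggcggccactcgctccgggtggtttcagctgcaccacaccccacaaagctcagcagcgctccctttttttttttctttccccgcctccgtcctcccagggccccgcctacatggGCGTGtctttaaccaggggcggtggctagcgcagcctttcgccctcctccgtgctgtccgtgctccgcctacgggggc
Aldoc (chr11:78322823-78323072, plus strand): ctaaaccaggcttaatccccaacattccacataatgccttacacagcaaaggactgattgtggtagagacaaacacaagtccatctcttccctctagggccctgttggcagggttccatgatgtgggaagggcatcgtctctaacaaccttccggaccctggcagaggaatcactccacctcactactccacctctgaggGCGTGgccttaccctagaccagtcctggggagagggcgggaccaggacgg
Ldha (chr7:46845554-46845803, plus strand): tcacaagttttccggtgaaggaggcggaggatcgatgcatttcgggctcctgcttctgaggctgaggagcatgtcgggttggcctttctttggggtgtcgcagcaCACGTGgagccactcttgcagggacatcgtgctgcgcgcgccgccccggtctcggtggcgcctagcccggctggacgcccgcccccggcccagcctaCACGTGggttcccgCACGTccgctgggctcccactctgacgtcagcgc
Bnip3 (chr7:138909507-138909756, minus strand): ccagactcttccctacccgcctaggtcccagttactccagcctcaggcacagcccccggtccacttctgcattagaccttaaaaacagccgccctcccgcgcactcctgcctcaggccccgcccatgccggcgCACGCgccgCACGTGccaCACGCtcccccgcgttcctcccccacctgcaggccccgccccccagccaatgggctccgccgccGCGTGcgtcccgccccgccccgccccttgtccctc
The Egln3, Pdk1 and Aldoc windows each held 1 match, which began at position -229, -78 and -50 from the start site. The Ldha and Bnip3 windows each held 5. Pdk1, Aldoc and Ldha each have another RefSeq start site, whose window is not shown. A match is a run of letters and not a measured binding site.

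The oxygen-sensing genes showed the largest difference of the set, in Egln3. Egln3 encodes PHD3, a prolyl hydroxylase that acts on HIF alpha subunits and is itself strongly induced by HIF. It lies on GRCm38 at chromosome 12, 54178981 to 54203860, minus strand (GENCODE vM21). It was at 48.0, 56.3 and 60.0 CPM in control-labelled and 25.5, 25.5 and 18.0 CPM in mutant-labelled hearts. The highest mutant-labelled heart lay below 26 CPM and the lowest control-labelled heart above 47, so the groups were far apart. The control-labelled mean of 54.7 ± 6.13 CPM (SD, n = 3) was 2.37 times the mutant-labelled level (23.0 ± 4.32 CPM, SD, n = 3) in the fitted model (log2 fold change -1.25 ± 0.15, SE, 95% interval -1.59 to -0.91). The adjusted p was 0.065 from edgeR and ran from 9.6e-12 to 0.24 over the alternatives, with 0.0095 from edgeR without control replicate 1 (log2 fold change -1.33). The smallest of these came from DESeq2.

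The other prolyl hydroxylases did not share a direction. Egln1, which encodes PHD2, the main hydroxylase of HIF1 alpha and also HIF-induced, was at 175, 199 and 203 CPM in control-labelled and 159.8, 166 and 149 CPM in mutant-labelled hearts (log2 fold change -0.28 ± 0.084, SE, adjusted p = 0.15 from edgeR). Its groups did not overlap, with every mutant-labelled heart below control. Egln2, which encodes PHD1 and is not known as a hypoxia-induced gene, had values of 48.1 ± 4.61 CPM in control-labelled and 55.4 ± 4.05 CPM in mutant-labelled hearts (SD, n = 3 each), with overlapping groups and a log2 fold change of 0.20. The log2 ratio of Egln3 to Egln1 counts within a heart, which does not depend on library scaling, was -1.86, -1.82 and -1.76 in the control-labelled group and -2.65, -2.70 and -3.05 in the mutant-labelled group. This ratio was lower in every mutant-labelled heart, with a mean difference of -0.99 (exact two-sided permutation p = 0.1, the smallest that 3 against 3 hearts allow, adjusted p = 0.31 over 14 ratios).

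The HIF alpha subunits leaned opposite ways. Hif1a, the subunit present in most cells, was at 296, 248 and 237 CPM in control-labelled and 299, 319 and 283 CPM in mutant-labelled hearts (log2 fold change 0.21 ± 0.10, SE, adjusted p = 0.30 from edgeR), and the groups overlapped because control replicate 1 lay among the mutant-labelled hearts. Epas1, which encodes HIF2 alpha and is prominent in endothelium, was at 61.2, 72.5 and 79.1 CPM in control-labelled and 59.6, 55.4 and 59.0 CPM in mutant-labelled hearts. Every mutant-labelled heart was below control (log2 fold change -0.29 ± 0.099, SE, adjusted p = 0.18 from edgeR, 0.044 to 0.38 over the alternatives and 0.044 without control replicate 1). Of the 12 endothelial markers, 7 had lower and 5 higher estimates, and the part of endothelial content in the Epas1 level was not tested. The ratio of Epas1 to Hif1a was -2.27, -1.77 and -1.58 in the control-labelled group and -2.33, -2.53 and -2.26 in the mutant-labelled group on the log2 scale, and the groups overlapped (exact permutation p = 0.20). Their partner Arnt and the ubiquitin ligase subunit Vhl differed little, with log2 fold changes of -0.053 and -0.084 and overlapping groups. Of the 7 sensing genes together, 3 were lower at an unadjusted p under 0.05 (Epas1, Egln1 and Egln3) and 0 higher, where 9.98% of all tested genes were lower and 9.48% higher. RNA levels of these genes do not report HIF protein, which is controlled mainly by its stability.

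The members listed as HIF-induced did not stand higher as a group in mutant-labelled hearts. The 20 listed came from every role. They were Slc2a1, Hk2, Pfkfb3, Pfkfb4, Aldoa, Aldoc, Tpi1, Pgk1, Eno1 and Ldha, and Slc16a3, Pdk1, Egln1, Egln3, Bnip3, Ankrd37, Adm, Car9, Kdm3a and P4ha1. Of these, 14 had lower and 6 higher estimates. At an unadjusted p under 0.05, 5 were lower (Egln3, Pdk1, Aldoc, Egln1 and Adm) and 0 higher, where 9.98% of all tested genes were lower and 9.48% higher. The median log2 fold change of the 20 was -0.10, against -0.0017 over all tested genes. Gapdh, Gpi1 and Pkm, the 3 members without overlap above control, were not listed, so these values depend on the choice of list. The lower levels were not particular to the listed members. Of the 21 members not on the list, 6 (28.6%) were lower and 1, Gapdh, was higher at that level, with a median of -0.084. Whether these 21 include HIF targets was not tested, so the split does not set HIF targets against other genes. The upper end of the 95% interval lay below a 2-fold increase for all 20 HIF-induced members and below a 1.41-fold increase for 17, the exceptions being Slc2a1, Eno1 and Car9. For Eno1 the upper end was 0.71 on the log2 scale, and 0.46, below that fold, once its near-identical copies were counted with it. These are intervals for single genes and are not adjusted over the 20.

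Targets outside glycolysis were at low to moderate levels. Bnip3, a mitophagy receptor, was at 245, 190.3 and 227 CPM in control-labelled and 201, 217 and 171 CPM in mutant-labelled hearts (log2 fold change -0.17 ± 0.12, SE, adjusted p = 0.45 from edgeR), with overlapping groups. Ankrd37, an ankyrin repeat gene used as a hypoxia readout, was at 4.41, 2.76 and 3.40 CPM in control-labelled and 3.0, 2.77 and 1.85 CPM in mutant-labelled hearts (log2 fold change -0.46 ± 0.25, SE, adjusted p = 0.34 from edgeR). Its groups overlapped, mutant replicate 3 was the lowest heart, and Ufsp2 and Lrp2bp, which overlap its position, held 905% of its level, and how reads over both were assigned is not stated. Adm, the vasoactive peptide adrenomedullin, was at 6.52, 5.14 and 6.20 CPM in control-labelled and 4.69, 4.91 and 3.28 CPM in mutant-labelled hearts, and every mutant-labelled heart was below control (log2 fold change -0.46 ± 0.19, SE, adjusted p = 0.23 from edgeR, 0.20 to 0.39 over the alternatives). Car9, a membrane carbonic anhydrase and a classical marker of hypoxic cells, was at 2.34, 2.72 and 2.44 CPM in control-labelled and 3.05, 2.56 and 2.97 CPM in mutant-labelled hearts (log2 fold change 0.20 ± 0.18, SE, adjusted p = 0.55 from edgeR, 95% interval -0.21 to 0.61). Its groups overlapped at these low levels, where control libraries held 79 to 89 counts, and Gm12454, at the same position, held 51.1% of its level. The histone demethylase Kdm3a and the collagen prolyl hydroxylase P4ha1 had log2 fold changes of -0.073 and -0.21 with overlapping groups.

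**Figure D2:**
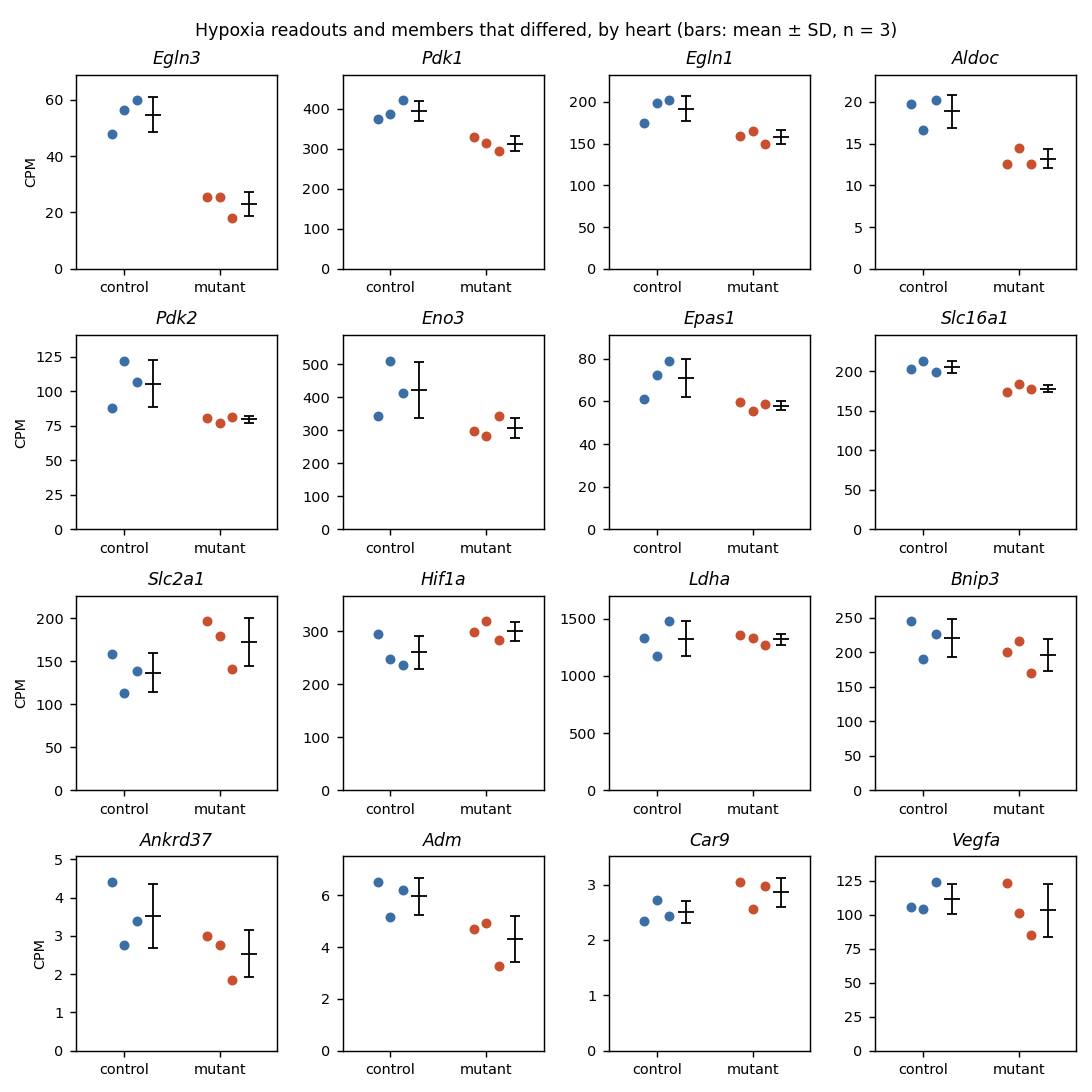
Level in CPM on the y axis for each heart (points) of the control-labelled and mutant-labelled groups on the x axis, with the mean and SD (n = 3), for hypoxia readouts, some of the members that differed, and Vegfa. Hk2, Ldhb, Pdha1 and the members above control without overlap (Gapdh, Gpi1 and Pkm) are not shown. The Egln3 points of the groups are far apart, with means of 54.7 and 23.0 CPM, while those of Bnip3, Car9 and Ldha overlap.

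Glucose enters cells through transporters and is trapped by hexokinase, and none of the 4 genes for these steps differed at an unadjusted p under 0.05. Slc2a1, the GLUT1 transporter of most fetal cells and a HIF target, was at 158, 114 and 138 CPM in control-labelled and 197, 179.6 and 141 CPM in mutant-labelled hearts (log2 fold change 0.34 ± 0.15, SE, adjusted p = 0.27 from edgeR, 95% interval -0.010 to 0.68). It had the highest estimate of the 41 members, but mutant replicate 3 lay within the control range. Hk2, the hexokinase of muscle and also HIF-induced, was at 82.3, 78.2 and 119 CPM in control-labelled and 102, 88.7 and 62.5 CPM in mutant-labelled hearts (log2 fold change -0.14 ± 0.21, SE, adjusted p = 0.74 from edgeR). The spread within each group of Hk2 exceeded the difference between them, and both extremes were replicate 3. Hk1, the widespread hexokinase, and Slc2a4, the insulin-responsive GLUT4 of muscle and fat, had log2 fold changes of -0.095 and -0.21 with overlapping groups. Levels per kb use the merged length of all annotated exons of a gene, which can exceed the length of a transcript. Per kb of exon, Slc2a1 was at 39.0 ± 6.37 CPM and Slc2a4 at 13.7 ± 3.66 CPM in control-labelled hearts (SD, n = 3 each), a ratio of 0.348 that was 0.243 in mutant-labelled hearts, with overlapping groups (exact permutation p = 0.20).

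In upper glycolysis, 1 of 9 genes, Aldoc, was lower at an unadjusted p under 0.05, a share near the 9.98% of all tested genes. Aldoc encodes aldolase C, the brain form of the enzyme that cleaves fructose bisphosphate, and is a HIF target. It was at 19.8, 16.6 and 20.2 CPM in control-labelled and 12.6, 14.5 and 12.5 CPM in mutant-labelled hearts, so that every mutant-labelled heart was below every control (log2 fold change -0.52 ± 0.11, SE, adjusted p = 0.091 from edgeR, 95% interval -0.77 to -0.26). Over the alternatives the adjusted p ran from 0.0062 to 0.26, and DESeq2 gave 0.0062. Aldoa, the main aldolase, differed by -0.055 with overlapping groups, and per kb of exon Aldoc was at 5.79 ± 0.600 CPM against 515 ± 33.6 CPM for Aldoa in control-labelled hearts (SD, n = 3). Gpi1, which interconverts glucose and fructose phosphates, was at 459, 453 and 478 CPM in control-labelled and 527, 526 and 493 CPM in mutant-labelled hearts. Its mutant-labelled values lay just above control (log2 fold change 0.15 ± 0.075, SE, adjusted p = 0.30 from edgeR).

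The phosphofructokinase genes control the committed step. Pfkl, the liver form, had 231 ± 27.7 CPM in control-labelled and 256 ± 10.3 CPM in mutant-labelled hearts, and Pfkm, the muscle form, had 206 ± 24.0 and 182 ± 2.64 CPM (SD, n = 3 each). Each overlapped between groups, but the log2 ratio of Pfkm to Pfkl within a heart, -0.44, 0.13 and -0.20 in the control-labelled group and -0.53, -0.46 and -0.48 in the mutant-labelled group, did not, by a narrow margin (difference -0.32, exact permutation p = 0.1, adjusted p = 0.31). Senp1 and Gm26513 overlap the position of Pfkm and held 27.3% of its level, and Pitrm1 overlaps Pfkp and held 42.8% of its level. Pfkp, the platelet form, Tpi1, which equilibrates the triose phosphates, and the regulators Pfkfb3 and Pfkfb4, which set the level of an allosteric activator of phosphofructokinase, had log2 fold changes of 0.0097, -0.035, 0.045 and -0.33 and overlapping groups.

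In lower glycolysis the member that was higher at an unadjusted p under 0.05 did not remain so once near-identical gene copies were counted with it. Gapdh, which oxidises glyceraldehyde phosphate, was at 1681, 1753 and 1799.9 CPM in control-labelled and 2232, 2033 and 2033 CPM in mutant-labelled hearts (log2 fold change 0.27 ± 0.088, SE, adjusted p = 0.17 from edgeR). Every mutant-labelled heart was above control. However, 74 other annotated genes match its transcript at 95% identity or more over at least 200 bases, and together they held 2892, 2973 and 3156 CPM in control-labelled and 2038, 2739.6 and 2649 CPM in mutant-labelled hearts. Every mutant-labelled heart was below control for the copies and above it for the gene, and per 100 counts on Gapdh they held 172, 169.6 and 175 counts in the control-labelled group and 91.3, 135 and 130.3 in the mutant-labelled group. The sum of gene and copies was 4572, 4726 and 4955 CPM in control-labelled and 4271, 4772 and 4682 CPM in mutant-labelled hearts, and these overlapped (log2 fold change -0.055 ± 0.094, SE, adjusted p = 0.77 from edgeR). How the authors' counting treated reads that map to several places is not stated, and its part in this pattern was not tested.

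Copies were found for 10 of the 41 members. Relative to the member's own level, they held 108% for Pgk1, 98.4% for Eno1, 34.6% for Pgam1, and between 1.2% and 13.8% for Ldha, Ldhb, Tpi1, Pkm, Gpi1 and Bnip3. Values of Gpi1 and Pkm with their copies still did not overlap between groups, with log2 fold changes of 0.085 and 0.093. With copies added, 0 members had an unadjusted p under 0.05 for a higher level and 10 for a lower one in edgeR's quasi-likelihood test, as Ldhb also dropped out. This way of counting was chosen after the data had been seen.

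**Figure D3:**
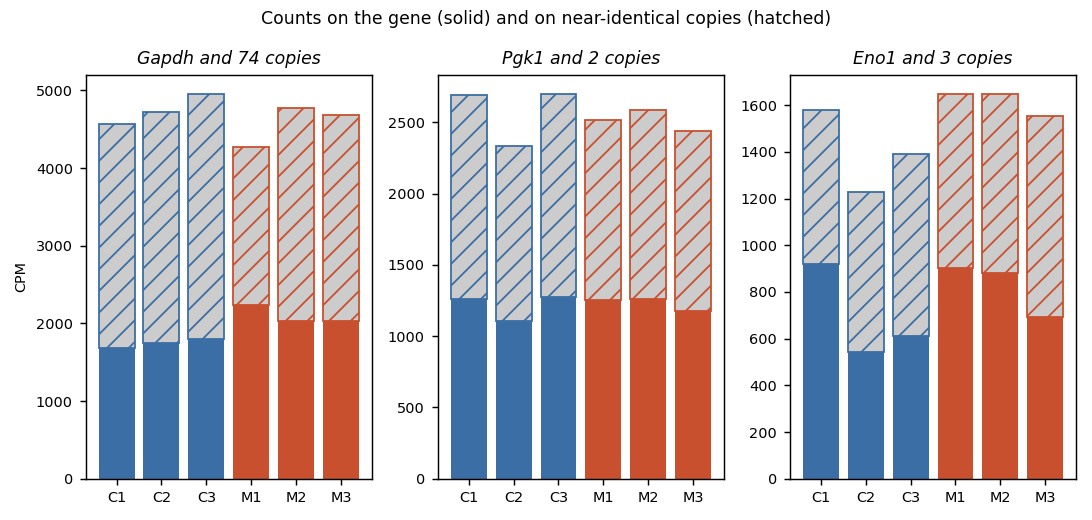
Stacked bars of CPM on the gene itself (solid) and on its near-identical copies (hatched) for each heart on the x axis (C, control-labelled, M, mutant-labelled). For Gapdh the solid part is taller and the hatched part shorter in the mutant-labelled hearts, and the totals, from 4271 to 4955 CPM, overlap.

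Among the other genes of lower glycolysis, Eno3, the muscle enolase, was at 344, 511 and 411 CPM in control-labelled and 298, 284 and 342 CPM in mutant-labelled hearts. Every mutant-labelled heart was below control, narrowly so beside control replicate 1 (log2 fold change -0.45 ± 0.15, SE, adjusted p = 0.17 from edgeR, 0.034 to 0.36 over the alternatives and 0.049 without control replicate 1). Eno1, the widespread enolase and a HIF target, had the widest spread of these genes, at 693 ± 201 CPM in control-labelled and 827 ± 115 CPM in mutant-labelled hearts (SD, n = 3). Its copies held 71.2, 125 and 127 counts per 100 on Eno1 in the control-labelled group and 82.3, 87.0 and 124 in the mutant-labelled group, and counting them with it lowered the SE of the log2 fold change from 0.20 to 0.11. Per kb of exon the ratio of Eno3 to Eno1 was 1.91 in the control-labelled and 1.16 in the mutant-labelled group, with overlapping groups (exact permutation p = 0.20). Pkm, pyruvate kinase, was at 1354, 1211 and 1311 CPM in control-labelled and 1426, 1370.0 and 1378 CPM in mutant-labelled hearts, and its mutant-labelled values lay just above control (log2 fold change 0.11 ± 0.085, SE, adjusted p = 0.50 from edgeR). Pgk1, which makes the first ATP of the pathway, and the phosphoglycerate mutases Pgam1 and Pgam2 (muscle form) had log2 fold changes of 0.016, 0.043 and -0.22 and overlapping groups.

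Of the 8 genes that handle lactate and pyruvate, 5 were lower at an unadjusted p under 0.05, where 9.98% of all tested genes were, and the median log2 fold change was -0.24 against -0.0017 over all tested genes. Of these, Ldhb was no longer under that level once its near-identical copy was counted with it. Pdk1, a HIF-induced kinase that switches off pyruvate dehydrogenase, was at 374, 387 and 422 CPM in control-labelled and 330.3, 315 and 294 CPM in mutant-labelled hearts (log2 fold change -0.33 ± 0.084, SE, adjusted p = 0.12 from edgeR, 0.012 to 0.29 over the alternatives, the smallest from DESeq2). Every mutant-labelled heart was below control. Pdk2, a kinase of the same kind abundant in heart and skeletal muscle, was at 88.2, 122 and 106 CPM in control-labelled and 80.5, 77.1 and 81.6 CPM in mutant-labelled hearts (log2 fold change -0.40 ± 0.11, SE, adjusted p = 0.13 from edgeR, 0.023 to 0.32 over the alternatives and 0.023 without control replicate 1). Control replicate 1 was the nearest to the mutant-labelled hearts, which lay close together. Pdk3, the remaining member of this kinase family in the set, had a log2 fold change of 0.15 with overlapping groups. Pdha1, the catalytic subunit of pyruvate dehydrogenase that these kinases phosphorylate, was at 289, 373 and 341 CPM in control-labelled and 275, 277 and 276 CPM in mutant-labelled hearts (log2 fold change -0.28 ± 0.10, SE, adjusted p = 0.20 from edgeR). The kinases and their substrate were thus lower side by side for Pdk1, Pdk2 and Pdha1, each without overlap.

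Lactate dehydrogenase interconverts pyruvate and lactate as a tetramer of A and B subunits. Ldha, the HIF-induced subunit, was at 1331, 1172 and 1480.4 CPM in control-labelled and 1363, 1330.3 and 1268 CPM in mutant-labelled hearts (log2 fold change -0.0079 ± 0.11, SE, adjusted p = 0.98 from edgeR, 95% interval -0.25 to 0.23). Its mutant-labelled values all lay within the control range. Ldhb, the subunit of the adult heart, was at 622, 828 and 759 CPM in control-labelled and 573, 602 and 647 CPM in mutant-labelled hearts (log2 fold change -0.28 ± 0.12, SE, adjusted p = 0.25 from edgeR), and control replicate 1 lay among the mutant-labelled hearts. Per kb of exon, Ldhb was at 469 ± 67.0 CPM and Ldha at 401 ± 46.7 CPM in the control-labelled group, against 387 ± 23.8 and 399 ± 14.5 CPM in the mutant-labelled group (SD, n = 3 each). The ratio of Ldhb to Ldha per kb was 1.17 and 0.969, with overlapping groups (exact permutation p = 0.20). This ratio depends on the exon lengths used, and in CPM Ldhb lay below Ldha in every heart. Slc16a1, the monocarboxylate transporter MCT1 that carries lactate in and out of cells, was at 203, 214 and 199 CPM in control-labelled and 174, 184 and 178 CPM in mutant-labelled hearts, with every mutant-labelled heart below control (log2 fold change -0.20 ± 0.068, SE, adjusted p = 0.18 from edgeR). Slc16a3, the HIF-induced lactate exporter MCT4, had a log2 fold change of 0.10 with overlapping groups.

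A list of 7 members typical of striated muscle (Slc2a4, Hk2, Pfkm, Pgam2, Eno3, Ldhb and Pdk2), drawn up with earlier results of these data known, held 7 lower estimates, where 50.3% of all tested genes had one. Its median log2 fold change was -0.22, and 3 were lower at an unadjusted p under 0.05 (Eno3, Ldhb and Pdk2), where 9.98% of all tested genes were, with Ldhb no longer so once its copy was counted. Pkm and Slc16a3, which are also expressed in muscle and are not on the list, had estimates of 0.11 and 0.10. The summed level of the 7 listed members was 1566, 2107 and 1930.4 CPM in control-labelled and 1468, 1508 and 1596 CPM in mutant-labelled hearts. Control replicate 1 lay within the mutant-labelled range, and the other control-labelled hearts lay above it. Of the 9 genes listed as skeletal muscle markers, 4 were tested, and they did not share a direction, with log2 fold changes of -1.67 for the muscle creatine kinase Ckm, -0.51 for Myh8, 0.32 for Acta1 and 0.49 for Myog. Of these, Ckm had an unadjusted p under 0.05 (adjusted p = 0.076 from edgeR). Mean levels in control-labelled hearts were 570 CPM for Ckm and 113 for Acta1, against 2.71 for Myh8 and 0.497 for Myog. The muscle type that the Ckm and Acta1 RNA came from was not tested. Of the 17 cardiomyocyte markers, 12 had lower and 5 higher estimates, 2 had an unadjusted p under 0.05 for a lower level and 3 for a higher one, and their summed levels overlapped as given above. The part of cardiomyocyte content in the lower muscle forms was not tested.

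Ratios of related genes within a heart were formed for 14 pairs. The groups did not overlap for 3, Pfkm to Pfkl, Aldoc to Aldoa and Egln3 to Egln1, with differences in mean log2 ratio of -0.32, -0.46 and -0.99 (exact permutation p = 0.1 each, the smallest possible, adjusted p = 0.31). Aldoc to Aldoa was -6.18, -6.44 and -6.31 in the control-labelled group and -6.83, -6.62 and -6.87 in the mutant-labelled group on this scale. For the remaining pairs the groups overlapped, with differences from -0.72 for Eno3 to Eno1 to 0.56 for Pdk3 to Pdk2.

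**Figure D4:**
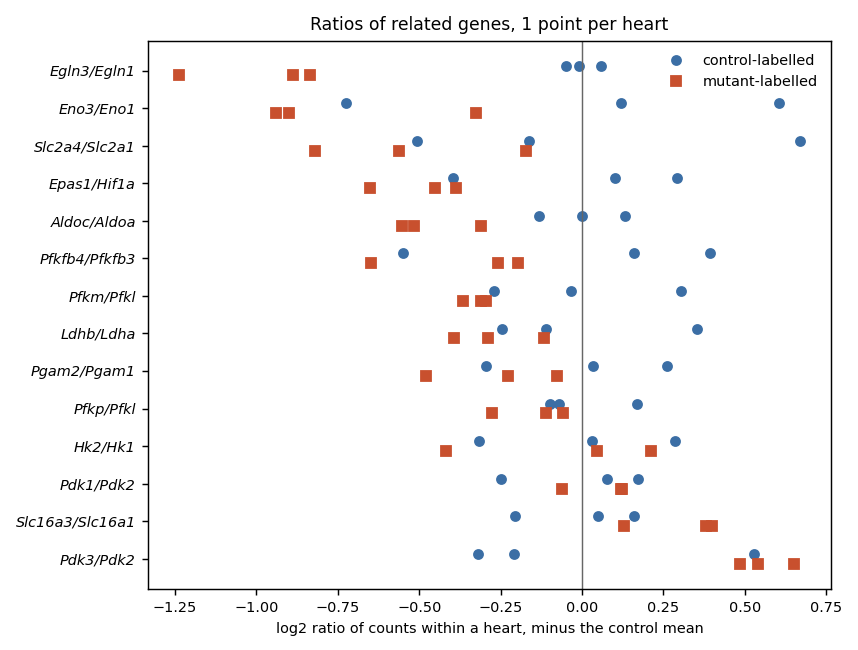
Log2 ratio of the counts of related genes within a heart, minus the mean of the control-labelled hearts, on the x axis, with 1 point per heart and 1 row per pair on the y axis. The Egln3 to Egln1 ratio stands farthest to the left in mutant-labelled hearts, with a mean difference of -0.99.

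Levels spanned a wide range in the control-labelled hearts. Per kb of exon, Pgk1 was highest at 542 ± 42.3 CPM (SD, n = 3), followed by Aldoa at 515 ± 33.6, Ldhb at 469 ± 67.0, Gapdh at 422 ± 14.5 and Ldha at 401 ± 46.7 CPM. Each neighbouring pair in this order overlapped between hearts, so the order among them is not firm, and for all but Aldoa these levels leave out near-identical copies. The order also depends on the exon lengths used. In CPM the means were 1744 for Gapdh, 1499 for Aldoa, 1328 for Ldha, 1215 for Pgk1 and 736 for Ldhb. At the low end were Adm at 3.68 ± 0.445, Ankrd37 at 2.29 ± 0.543, Car9 at 1.09 ± 0.0868 and Pfkfb4 at 0.763 ± 0.139 CPM per kb. Single hearts also differed over the whole set. Control replicate 3 was the highest of the 6 hearts for 15 members and mutant replicate 3 the lowest for 13, while mutant replicate 1, the deepest library, was the highest for 9 and the lowest for 6.

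**Figure D5:**
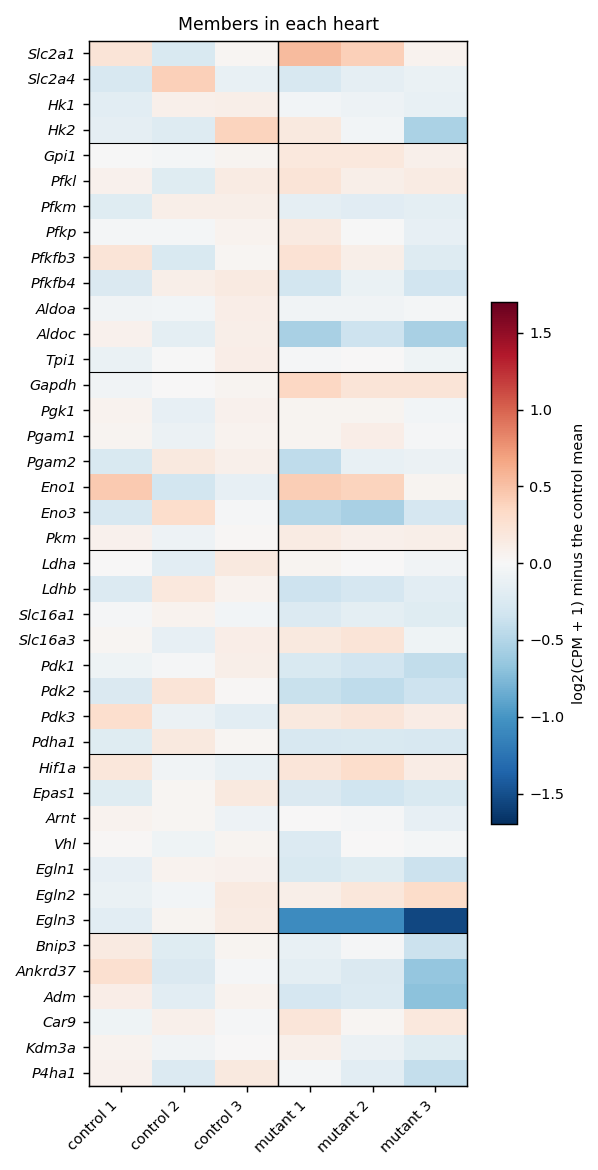
Level of each member (y axis) in each heart (x axis) as log2(CPM + 1) minus the mean of the control-labelled hearts, in colour, with a line between the control-labelled and mutant-labelled hearts. The row of Egln3 is the most different between the groups, with a log2 fold change of -1.25, and Gapdh is uniformly higher in mutant-labelled hearts before its copies are counted.

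Genes of the same pathways beyond the 41 were drawn from lists compiled from general knowledge. At an unadjusted p under 0.05, 9.98% of all tested genes were lower and 9.48% higher. Of 39 further hypoxia-induced genes, 38 were tested, 9 had an unadjusted p under 0.05 for a lower level and 4 for a higher one, the latter near the share over all tested genes, and the median log2 fold change was -0.12. Ppp1r3c, a glycogen-targeting phosphatase subunit, was at 202, 241 and 209 CPM in control-labelled and 145, 137 and 137 CPM in mutant-labelled hearts (log2 fold change -0.63 ± 0.085, SE, adjusted p = 0.065 from edgeR). Ndrg1, a stress-response gene, was at 26.7, 43.8 and 36.1 CPM in control-labelled and 20.3, 13.9 and 11.1 CPM in mutant-labelled hearts (log2 fold change -1.22 ± 0.24, SE, adjusted p = 0.083 from edgeR). Fam162a had a log2 fold change of -0.44, and for all of these every mutant-labelled heart was below control. Vegfa, the main HIF-induced growth factor for endothelium, was at 106, 104 and 124 CPM in control-labelled and 123, 102 and 84.9 CPM in mutant-labelled hearts (log2 fold change -0.11 ± 0.14, SE, adjusted p = 0.68 from edgeR), with overlapping groups. The genes of this list with the smallest p among the higher ones were Ppfia4 and Wsb1, with log2 fold changes of 0.24 and 0.36. The groups overlapped for Wsb1.

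Of 35 further glycolysis and pyruvate genes, 29 were tested, 9 had an unadjusted p under 0.05 for a lower level and 1 for a higher one, and the median log2 fold change was -0.20. Mpc1, a subunit of the mitochondrial pyruvate carrier, was at 17.4, 25.5 and 21.0 CPM in control-labelled and 12.3, 15.2 and 13.4 CPM in mutant-labelled hearts (log2 fold change -0.64 ± 0.15, SE, adjusted p = 0.10 from edgeR). Pdk4, the pyruvate dehydrogenase kinase of fasting and fat oxidation, was at 64.4, 68.1 and 54.8 CPM in control-labelled and 48.8, 46.2 and 43.3 CPM in mutant-labelled hearts (log2 fold change -0.44 ± 0.096, SE, adjusted p = 0.093 from edgeR). Both were below control in every mutant-labelled heart, and Pfkfb1, at low levels, had the smallest p among the higher genes (log2 fold change 0.42). Of 12 further oxygen-sensing genes, 1 passed that level on the lower side and 2 on the higher side. Arnt2, a paralog of Arnt, was at 13.1, 10.1 and 7.99 CPM in control-labelled and 20.0, 23.2 and 18.7 CPM in mutant-labelled hearts (log2 fold change 0.99 ± 0.18, SE, adjusted p = 0.081 from edgeR, 2.8e-05 to 0.24 over the alternatives). Every mutant-labelled heart was above control, as it was for Os9, a lectin of the endoplasmic reticulum also described as a partner of HIF1 alpha (log2 fold change 0.31). No gene of the 3 lists passed the adjusted threshold in edgeR, and DESeq2 called 12 lower and 1 higher, where it called 3.26% of all genes lower and 2.52% higher. Without control replicate 1 edgeR called 8 lower and 1 higher, and of all genes 2.49% lower and 1.85% higher. The adjusted p over the alternatives ran from 1e-07 to 0.24 for Ppp1r3c, from 1.8e-05 to 0.24 for Ndrg1, from 0.0047 to 0.28 for Mpc1 and from 0.0068 to 0.27 for Pdk4.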

How the data were processed

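mRNA libraries of whole hearts were sequenced, and the authors mapped the reads to GRCm38 with STAR 2.4.2a and GENCODE vM6 and counted them with summarizeOverlaps. The authors deposited raw counts per gene, without normalization. Their overlap mode, strand setting and handling of multi-mapping reads are not given in the sources used here. A further deposited table was used for gene symbols only. Its columns of the authors' own comparison (mean, log2 fold change, error, statistic and p-values) were not used. Each heart was taken as 1 replicate by its label.

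The main test was the quasi-likelihood test of edgeR 4.0.16 (with limma 3.58.1, under R 4.3.3) after filterByExpr (minimum count 10, minimum total 15) and TMM scaling, with condition as the only term. The SE is the size of the log2 fold change divided by the square root of F, and intervals are 95% intervals. Coordinates and exon lengths came from GENCODE vM21 on GRCm38, and promoter windows from RefSeq. An exon length is the merged length of all annotated exons of a gene. As alternatives, DESeq2 1.42.0 was run, and edgeR was rerun with RLE size factors, a looser and a stricter filter, counts thinned to the total of the smallest library, each heart left out in turn, or the replicate number as a block. Counting near-identical copies with the member was added after the data had been seen. The steps were tested on simulated data. Members and lists were chosen with earlier results of these data known. Heart-by-heart values are given for members with an unadjusted p under 0.05 or without overlap, and for 10 readouts of hypoxia (Slc2a1, Hk2, Pdk1, Ldha, Hif1a, Egln3, Bnip3, Ankrd37, Adm and Car9). Of the other pathway genes, the 5 with the smallest p in each direction (mean level 1 CPM or more) are named, as is Vegfa. The biological coefficient of variation was 15.3%.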

Additional observations from a re-analysis of the deposited data

How the results depend on the processing

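Of the 41 members, 31 kept the direction of their estimate in all 13 alternatives. With edgeR, members called lower numbered 0, and numbered 5 with DESeq2, 2 with all genes of at least 1 count and 0 to 4 on leaving out 1 heart. Those called higher numbered 0, and 1 with DESeq2. At an unadjusted p under 0.05, the count of higher members was 1, and was 2 with DESeq2, 4 with all genes of at least 1 count, 2 after thinning, 0 with copies added and 1 to 5 on leaving out 1 heart, and that of lower members was 11 and ran from 7 (without control replicate 3, mutant replicate 2 or mutant replicate 3) to 13 (without control replicate 1) on leaving out 1 heart. The 5 higher members came without control replicate 1. Of the other pathway genes, DESeq2 called 1 higher and 12 lower, all genes of at least 1 count gave 1 and 6, and leaving out 1 heart gave 0 to 1 and 0 to 8. At an unadjusted p under 0.05, 7 of these were higher, and 4 (without mutant replicate 1) to 9 (without control replicate 2) on leaving out 1 heart. The calls at an adjusted p under 0.05 gained on leaving out 1 heart came without control replicate 1. The cause of these differences was not tested. The labels do not say whether the numbers shared by the groups pair the hearts. The study states that it always used litter mates as controls. Same-numbered hearts had correlations of 0.022, -0.087 and -0.090 in their deviations from the group means, and control replicate 2 had 0.15 with mutant replicate 3. Deviations from a mean of 3 hearts are not independent, so these values cannot decide whether hearts were paired. With the replicate block, 3 members were higher at an unadjusted p under 0.05 and 0 members were called at an adjusted one.

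Direction turned for Ldha with all genes of at least 1 count (0.0013) and with copies added for Gapdh (-0.055) and Pgk1 (-0.036). Leaving out 1 heart gave log2 fold changes of -0.085 to 0.00019 for Aldoa, -0.30 to 0.079 for Hk2, -0.089 to 0.078 for Ldha, -0.073 to 0.17 for Pfkfb3, -0.070 to 0.083 for Pfkp, -0.0030 to 0.083 for Pgam1, -0.046 to 0.054 for Pgk1, -0.35 to 0.025 for Slc2a4, -0.086 to 0.025 for Tpi1 and -0.26 to 0.018 for Vegfa, and differences in log2 ratio of -0.21 to 0.13 for Hk2 to Hk1 and -0.065 to 0.15 for Pdk1 to Pdk2. All of these include 0. With 3 hearts a group, no ratio could reach an exact p under 0.1.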
